A study of Mus musculus with 30 samples.

Results

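The genes described here encode 10 adhesion molecules of stromal cells, *Thy1* (CD90), *Pdpn* (podoplanin, PDPN), *Vcam1*, *Icam1*, *Madcam1*, *Ncam1*, *L1cam*, *Cdh2* (N-cadherin), *Cdh11* (cadherin-11) and *Cd44*. They were chosen by symbol for the function of their products, and *Thy1* and *Pdpn* also because CD90 and PDPN were sorting markers. They are 10 of the 32386 genes to which the deposited transcripts were assigned. Bulk RNA-seq was performed on 30 libraries, 3 of each of 10 mesenchymal populations that had been sorted by flow cytometry from the lamina propria of the small intestine and the colon. The study asked how stromal subsets differ within each tissue and whether the same subset differs between the tissues. Each population was represented by 3 replicates, and the labels give 3 individual mice as the source. The mice were of the strain C57BL6/Nrj, untreated and 8 to 10 weeks old.

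In every sort, dead cells and cells that stained for Lineage markers, CD31 (endothelium), BP3 or EpCAM (epithelium), or highly for NCAM, were removed before the populations were gated. Pericytes of both tissues were PDGFRα-ESAM-1+PDPN- cells. Smooth muscle cells (SMC), sorted from the small intestine, were PDGFRα-ESAM-1+PDPN+. The remaining populations were ESAM-1- fibroblasts (FB). In the small intestine, CD34+ FB were PDGFRα intCD34+, Fgfr2+ FB were PDGFRα intCD34- and PDGFRα hi FB were PDGFRα hiCD34-. In the colon, CD81+ FB were PDPN intCD34+CD90-, CD90+ FB were PDPN hiCD34+CD90+, Fgfr2+ FB were PDPN hiCD34+CD90- and PDGFRα hi FB were PDPN+CD34-. The study describes small intestinal CD34+ FB as a mixture of subsets, and the gates of Fgfr2+ FB and PDGFRα hi FB were not the same in both tissues. Where the gates of the compared populations differed in CD90 or PDPN, *Thy1* or *Pdpn* is given by its levels, is not counted and has no test reported. The removal of NCAM hi cells applied to every population, so that the *Ncam1* levels are those of cells that had passed this gate.

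The total estimated count per library was between 2245052 and 19096945, with a median of 9601683. Replicate 3 of small intestinal Fgfr2+ FB was the shallowest library. Levels are given as CPM, in which the counts of a gene are taken relative to the library's total and scaled by TMM over all 30 libraries, as the value of each of the 3 libraries in the order of their replicate numbers, or as mean ± SD with n = 3. A library without a count of a gene could have held up to 3 counts by chance, which corresponds to between 0.142 and 1.04 CPM depending on the library. The RNA was amplified before sequencing and carried no molecular identifiers, so such limits and the intervals below cover counting error only. For differences, the quasi-likelihood test of edgeR was applied to every gene that reached 6 counts in 3 or more libraries. A gene counted as called where its p, adjusted by the method of Benjamini and Hochberg, was below 0.05 and its log2 fold change exceeded 1.5 in either direction. Overlap of libraries is given as a description and not as a test. With 3 libraries a side overlap can be absent by chance, and the share of all genes without it is not given here.

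The gated identities were compared with marker genes of each cell type. A list of 7 pericyte genes, with *Rgs5* the most abundant, summed to 52710, 33610 and 43700 CPM in small intestinal pericytes and to 38060, 53020 and 33460 CPM in colonic pericytes, against at most 7818 CPM in a library of any other population. The 5 SMC genes summed to 20780, 16820 and 20510 CPM in SMC, with *Myh11* the most abundant. They also summed to 9912, 11180 and 10880 CPM in colonic pericytes and to 4491, 2946 and 3178 CPM in small intestinal pericytes. The 5 fibroblast genes summed to at least 9527 CPM in every FB library, to between 3804 and 7284 CPM in SMC and to at most 1770 CPM in a pericyte library. The 6 genes chosen to mark the sorted subsets, among them *Cd34* and *Fgfr2*, summed to between 18.7 and 2759 CPM per library. This sum joins genes of different subsets and does not tell the FB subsets apart. By its mean, *Bmp7* led the list in PDGFRα hi FB of the small intestine (902 CPM) and of the colon (657 CPM). *Fgfr2* led in small intestinal Fgfr2+ FB (1646 CPM), but *Cd34* led in colonic Fgfr2+ FB (494 CPM), which were gated as CD34+. *Cd34* also led in the other FB gated as CD34+.

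Markers of cells other than the sorted ones were low in most libraries, with exceptions named here. The 4 neuronal genes summed to at most 9.33 CPM in any library. The sums did not exceed 37.9 CPM for epithelium (5 genes), 56.4 CPM for lymphatic endothelium (4 genes), 22.6 CPM for plasma cells (2 genes), 15.9 CPM for mesothelium (4 genes) and 3.65 CPM for erythroid cells (2 genes). Blood endothelial genes (5) reached 380.1 CPM in a library of colonic CD81+ FB, a population in which *Tek* was the most abundant at a mean of 307 CPM. They summed to 278, 150.4 and 158 CPM in small intestinal pericytes, again with *Tek* the most abundant by its mean. The lymphoid stroma list (5 genes) reached 126 CPM, most of it *Cxcl13*. Of the list for interstitial cells of Cajal (3 genes), *Ano1* was at 1093, 547 and 694 CPM in small intestinal and 722, 854 and 591 CPM in colonic pericytes, whereas *Kit*, which defines these cells, was at 0.428, 0 and 8.36 and 0, 0.126 and 0 CPM in the same libraries. *Kit* was highest in replicate 3 of small intestinal PDGFRα hi FB, at 43.4 CPM.

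Replicate 1 of small intestinal pericytes stood apart from the other libraries of its population. It had the fewest genes with 6 or more counts of all 30 libraries, 10359 against 12393 and 13835 in replicates 2 and 3. Its correlations of log2 CPM with replicates 2 and 3 were 0.7225 and 0.7528, against 0.8036 between replicates 2 and 3. Its 5 leukocyte genes summed to 203.5 CPM, of which *Cd79a* held 199.4 CPM, against 4.8 and 24.3 CPM in replicates 2 and 3, while the T cell gene *Cd3e* was at 0. The same library had the highest *Vcam1* and *Cdh11* of all pericyte libraries. The part of the leukocyte genes and of the low number of genes in these levels was not tested. Where leaving replicate 1 out changed a call, or moved a tested difference of *Vcam1* or *Cdh11* by over 1.5 times, the value without it is given beside the result. Outside small intestinal pericytes the leukocyte sum was at most 33.5 CPM except in replicate 2 of colonic pericytes, with 96.3 CPM, where *Lyz2* was the most abundant.

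Adhesion molecules of stromal cells hold these cells to each other and to the matrix, and present surfaces on which leukocytes arrest and migrate. Members of the immunoglobulin superfamily on stroma and vessels bind leukocyte integrins, or bind their own kind on a neighbouring cell. Classical cadherins bind like with like in a calcium-dependent manner and connect through catenins to actin. CD44 is a receptor for hyaluronan, a polysaccharide of the extracellular matrix. In the intestine, pericytes wrap the capillaries of the mucosa, and fibroblasts lie beneath the epithelium and deeper in the lamina propria and submucosa.

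Most of these genes were transcribed in most populations, and 6 of the 7 tested outside the sorting markers differed among them. Compared per transcript length, as TPM rescaled to the matched genes and averaged over the 30 libraries, *Ncam1* was the most abundant at 391 TPM, followed by *Cdh11* at 176 and *Cd44* at 159 TPM. *Vcam1* (79.6 TPM), *Thy1* (67.5 TPM), *Icam1* (49.3 TPM), *Pdpn* (43.4 TPM) and *Cdh2* (26.8 TPM) were lower on the same scale. *L1cam* was at 10.4 TPM and *Madcam1* at 0.119 TPM. The order was not the same in each population. In small intestinal PDGFRα hi FB *Cdh11* was at a mean of 521.9 TPM and *Ncam1* at 68.9 TPM, in colonic PDGFRα hi FB *Cd44* at 641.9 and *Ncam1* at 542.6 TPM, and in small intestinal pericytes *Cdh2* at 165.4, *Thy1* at 158.9 and *Ncam1* at 9.80 TPM. In a test for any difference among the 10 populations, 6 of the 7 genes tested were called at an adjusted p below 0.05, and 26.4% of all 17564 genes tested were. The 6 were *Cdh2* (adjusted p = 6.20e-14), *Ncam1* (3.46e-12), *Cdh11* (2.97e-08), *Cd44* (1.69e-06), *Vcam1* (2.05e-05) and *Icam1* (0.00157). *L1cam* did not pass (adjusted p = 0.237), although DESeq2 called it, and *Madcam1* had too few counts to be tested. *Thy1* and *Pdpn* were left out of this count because their proteins were part of the gates. In these bulk samples a difference in RNA per cell and a difference in the share of cells that carry the transcript cannot be told apart.

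**Figure D1:**
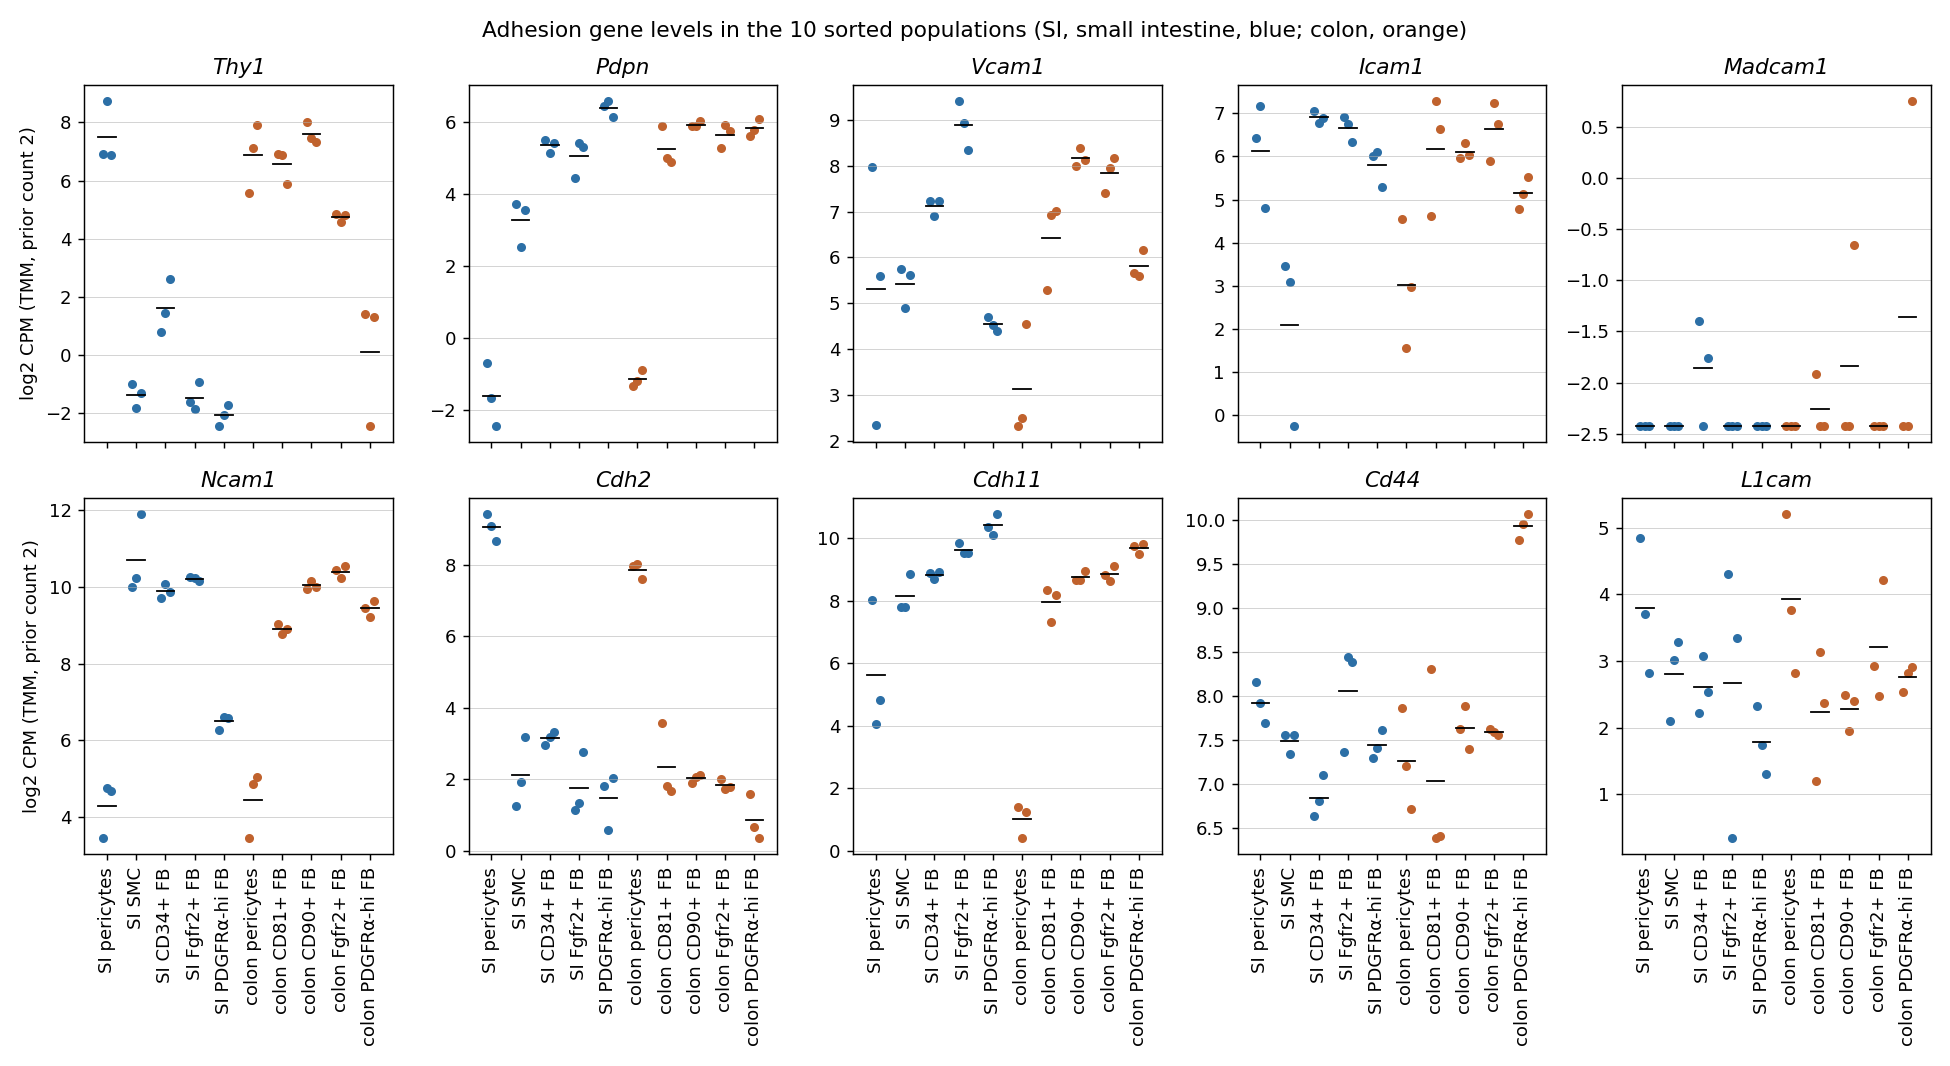
Levels of the 10 adhesion genes in each of the 30 libraries, as log2 CPM (TMM normalisation, prior count 2) on the vertical axis and sorted population on the horizontal axis, with a point for each library, a bar at the mean of 3 libraries, small intestine in blue and colon in orange. *Cdh2* stands high in both pericyte populations and low in the other 8, *Cd44* is highest in colonic PDGFRα hi FB, and *Madcam1* lies at the bottom of its panel in the 25 of 30 libraries without a count.

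Of the sorting markers, *Thy1* encodes CD90, a glycolipid-anchored glycoprotein of T cells, neurons and many stromal cells. Its transcript was high in pericytes of both tissues and in 2 colonic FB populations, and close to 0 in SMC and in 2 of the 3 small intestinal FB populations. Small intestinal pericytes were at 119.5, 426 and 118 CPM and colonic pericytes at 47.4, 138 and 241 CPM. In the colon it was at 255, 175 and 159 CPM in CD90+ FB, the population gated on the protein, and at 120.4, 118 and 58.4 CPM in CD81+ FB, which were gated as CD90-. These 4 populations overlapped with their neighbours in the order of means, and colonic Fgfr2+ FB, also gated as CD90-, followed at 28.4, 23.7 and 27.7 CPM without overlap. Small intestinal CD34+ FB were at 1.52, 2.53 and 6.01 CPM and colonic PDGFRα hi FB at 2.45, 0 and 2.31 CPM. The counts themselves were 3, 1 and 2 in SMC, 2, 1 and 1 in small intestinal Fgfr2+ FB and 0, 1 and 1 in small intestinal PDGFRα hi FB, so that these 3 populations lay at or near the limit of detection. *Cd3e* was at 1.24, 0.697 and 1.93 CPM in small intestinal CD34+ FB and lower in every other library. Which population led depended on the setting. The log2 ratio of small intestinal pericytes to colonic CD90+ FB was 0.17, -0.73 without replicate 2 of these pericytes, -0.60 in rescaled TPM and -0.12 in CPM without TMM.

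*Pdpn* encodes the mucin-like membrane glycoprotein podoplanin, a ligand of the platelet receptor CLEC-2. It was present in every FB population, lower in SMC and close to 0 in pericytes, the last of which had been gated as PDPN-. It was highest in small intestinal PDGFRα hi FB, at 86.5, 94.5 and 70.0 CPM, which did not overlap with colonic CD90+ FB at 58.9, 58.5 and 64.5 CPM. Colonic PDGFRα hi FB were at 48.8, 53.8 and 67.2 CPM and colonic Fgfr2+ FB at 38.6, 59.3 and 53.4 CPM. Small intestinal CD34+ FB (44.6, 35 and 42 CPM), colonic CD81+ FB (58.8, 31.9 and 29.1 CPM) and small intestinal Fgfr2+ FB (21.5, 42.2 and 39.4 CPM) overlapped with one another. SMC, gated as PDPN+, were at 13.1, 5.58 and 11.6 CPM and lay below all FB libraries. The counts were 2, 1 and 0 in small intestinal and 2, 2 and 5 in colonic pericytes. Colonic CD90+ and Fgfr2+ FB were both gated as PDPN hi and CD81+ FB as PDPN int, and replicate 1 of CD81+ FB, at 58.8 CPM, lay within the range of the PDPN hi populations.

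Among the molecules that bind leukocytes, *Vcam1* encodes a ligand of leukocyte integrins on activated endothelium and stroma. By its mean it was highest in Fgfr2+ FB of the small intestine and lowest in colonic pericytes and small intestinal PDGFRα hi FB. Small intestinal Fgfr2+ FB were at 679.5, 492 and 326 CPM and overlapped with colonic CD90+ FB at 255, 336 and 279 CPM, which in turn overlapped with colonic Fgfr2+ FB at 169, 247 and 286 CPM. CD34+ FB were at 149.5, 120 and 149 CPM, colonic CD81+ FB at 39.1, 121 and 129.7 CPM, colonic PDGFRα hi FB at 50.6, 48.5 and 71.1 CPM and SMC at 53.6, 29.4 and 48.5 CPM. Small intestinal PDGFRα hi FB lay below all of these at 25.9, 23 and 20.8 CPM. Pericytes varied most, at 250.4, 4.92 and 48.3 CPM in the small intestine and 4.84, 5.41 and 23.1 CPM in the colon. The highest of these 6 libraries was the small intestinal one that also held *Cd79a*.

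*Icam1* encodes another ligand of leukocyte integrins, carried by endothelial, epithelial and stromal cells. The upper 8 populations formed a series in which each overlapped with the next, and colonic pericytes and SMC lay below them. CD34+ FB were at 134, 109.6 and 118 CPM, small intestinal Fgfr2+ FB at 119.9, 107 and 80.2 CPM and colonic Fgfr2+ FB at 59.3, 150 and 107 CPM. Colonic CD81+ FB were at 24.2, 156 and 99.5 CPM, colonic CD90+ FB at 61.9, 79.9 and 65.4 CPM and small intestinal pericytes at 85.5, 143 and 27.6 CPM. PDGFRα hi FB were at 64.5, 68.8 and 38.6 CPM in the small intestine and 27.3, 34.8 and 46 CPM in the colon. Colonic pericytes, at 23, 2.77 and 7.68 CPM, and SMC, at 10.8, 8.28 and 0.66 CPM, overlapped with each other and with no other population. The order of the top 2 was not stable, with a log2 ratio of CD34+ FB to colonic Fgfr2+ FB of 0.19, and of -0.10 without replicate 1 of the latter.

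*Madcam1* encodes the mucosal addressin, which guides lymphocytes into gut tissue and is known from venules and from stroma of lymphoid tissue. It was near the limit of detection, with 22 counts in all 30 libraries and none in 25 of them. The counts were 2, 0 and 1 in CD34+ FB, 1, 0 and 0 in colonic CD81+ FB, 0, 0 and 7 in CD90+ FB and 0, 0 and 11 in colonic PDGFRα hi FB. A single library of each of the last 2 populations held 18 of the 22 counts, and differences between populations were not tested at so few counts. Cells positive for BP3, a protein of lymphoid stroma, had been removed by the sort, and its gene *Bst1* was at most at 15 CPM.

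Among the molecules that bind their own kind, *Ncam1* encodes the neural cell adhesion molecule NCAM. It was abundant in SMC and in all FB but those of the small intestinal PDGFRα hi subset, and lowest in pericytes. SMC were at 1016, 1201 and 3806 CPM, with replicate 3 far above the others. Colonic Fgfr2+ FB were at 1370, 1187 and 1487 CPM, small intestinal Fgfr2+ FB at 1222, 1195 and 1125 CPM, CD90+ FB at 984, 1132 and 1027 CPM and CD34+ FB at 829, 1069 and 935 CPM. In these 5 populations each overlapped with the next, and none overlapped with the remaining ones. Colonic PDGFRα hi FB were at 698, 596 and 792 CPM and CD81+ FB at 524, 439 and 478 CPM. Small intestinal PDGFRα hi FB were at 77.7, 98.2 and 95.9 CPM, below every other FB library. Pericytes were at 10.9, 27.1 and 25.6 CPM in the small intestine and 10.8, 28.8 and 32.8 CPM in the colon, overlapping with each other only. The lead of SMC rested on replicate 3, as the log2 ratio of SMC to colonic Fgfr2+ FB was 0.58 and -0.28 without it. SMC did not lead in rescaled TPM, at 648.9 ± 173.7 against 694.3 ± 364.2 in small intestinal Fgfr2+ FB. The TMM factor of SMC replicate 3 was 0.681, against 1.089 and 1.108 in replicates 1 and 2. Genes with 6 or more counts numbered 12300 in it, against 14482 and 14309. In SMC replicate 3 blood endothelial genes summed to 179.7 CPM, against 40.7 and 41.8 CPM in the other SMC libraries. The fibroblast list summed to 7284 CPM there, against 3804 and 4064 CPM, and the pericyte list to 7818 CPM, against 4685 and 4236 CPM. The genes chosen for the sorted subsets summed to less, 273.4 CPM against 490.9 and 390.6 CPM. The part of these lists in the *Ncam1* level was not tested.

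*L1cam* encodes a related adhesion molecule of neurons and some epithelia. It was low everywhere, between 1.08 and 36.8 CPM per library, and each population overlapped with the next in the order of means. Pericytes were at 36.8, 13.3 and 6.89 CPM in the colon and 28.7, 12.9 and 6.88 CPM in the small intestine, the lowest population being small intestinal PDGFRα hi FB at 4.82, 3.16 and 2.3 CPM. Of its 2599 counts over all libraries, kallisto had assigned 1807, or 69.5%, to the transcript L1cam-205, which the annotation gives as a retained intron, and this share lay between 12.1% and 96.1% per library. The order of the pericyte populations of the 2 tissues was not stable, with a log2 ratio of colon to small intestine of 0.23, and of -0.67 without replicate 1 of the colonic pericytes, -0.13 without replicate 3 of the small intestinal pericytes and -0.17 in rescaled TPM.

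Of the cadherins, *Cdh2* encodes N-cadherin, which joins pericytes to endothelial cells and is also found in neurons and muscle. It separated the pericytes from the other 8 populations in all 30 libraries. Small intestinal pericytes were at 684, 546 and 407 CPM and colonic pericytes at 248, 259 and 194 CPM. CD34+ FB were next at 7.62, 8.8 and 9.77 CPM, and the highest library outside pericytes, of colonic CD81+ FB, was at 11.7 CPM. SMC were at 2.22, 3.56 and 8.91 CPM, and colonic PDGFRα hi FB were the lowest by their mean, at 2.82, 1.4 and 1.09 CPM. Below the pericytes, each population overlapped with the next in the order of means.

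*Cdh11* encodes a cadherin of mesenchymal cells and osteoblasts. It was present in all FB and in SMC and was highest in PDGFRα hi FB of the small intestine. These were at 1318, 1107 and 1753 CPM, colonic PDGFRα hi FB at 855, 730.5 and 909 CPM and small intestinal Fgfr2+ FB at 919.8, 739.5 and 733 CPM. The first did not overlap with the others, which overlapped with each other. Colonic Fgfr2+ FB were at 454, 394 and 549 CPM, CD34+ FB at 469.6, 412 and 486 CPM and CD90+ FB at 407, 408 and 493 CPM. SMC were at 220.5, 224 and 467 CPM and CD81+ FB at 326, 158 and 291 CPM. Colonic pericytes were the lowest at 2.47, 1.13 and 2.15 CPM, whereas small intestinal pericytes spread widely, at 260.4, 16.3 and 28.1 CPM, with the high value again in replicate 1.

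*Cd44* encodes the hyaluronan receptor CD44. Colonic PDGFRα hi FB stood above the other 9 populations without overlap, at 874, 998 and 1076 CPM, whereas small intestinal PDGFRα hi FB were at 156, 169.9 and 195 CPM. Small intestinal Fgfr2+ FB were at 164, 346 and 333 CPM, colonic Fgfr2+ FB at 196, 192 and 188 CPM and CD90+ FB at 197, 235 and 168 CPM. Pericytes were at 286, 242 and 206 CPM in the small intestine and at 232, 147 and 105 CPM in the colon, and SMC at 188, 162 and 188 CPM. CD34+ FB, the lowest by their mean, were at 98.7, 112 and 137 CPM. In CD81+ FB, at 316, 83.2 and 84.2 CPM, replicate 1 lay far above the others, and the same library had the lowest *Vcam1* and *Icam1* of its population. From the second population down, each overlapped with the next.

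Pericytes were then compared with FB of the same tissue, which asks how the contractile cells of the vessel wall differ from fibroblasts in adhesion genes. In the small intestine, pericytes carried more *Thy1* and *Cdh2* and less *Ncam1* and *Cdh11* than the mean of the 3 FB populations. For *Vcam1*, *Icam1* and *Cd44* the libraries of both sides overlapped and no difference passed the test. Of the 8 genes tested, 4 were called, against 15.2% of all 16237 genes. *Thy1* was higher in 3 of 3 pericyte libraries than in all FB libraries (log2 fold change 9.34, SE 0.59, adjusted p = 1.93e-08). This fitted value depends on small counts, since Fgfr2+ and PDGFRα hi FB held at most 2 counts per library, and it was 8.44 without replicate 2 of the pericytes. *Cdh2* was also higher in all 3 (log2 fold change 6.96, SE 0.44, adjusted p = 1.93e-08). *Ncam1* was lower in all 3 (log2 fold change -4.46, SE 0.47, adjusted p = 4.17e-06), as was *Cdh11* (log2 fold change -2.97, SE 0.68, adjusted p = 0.00631). Without replicate 1 of the pericytes, the value for *Cdh11* was -5.18 (adjusted p = 1.08e-06, the highest over the alternatives being 0.0206) and *Vcam1* was also called (-2.16, adjusted p = 0.0275), so that 5 genes passed. *Vcam1* (-0.21, adjusted p = 0.868) and *Icam1* (-0.06, adjusted p = 0.972) were far from the threshold with all libraries in the fit. The values for *Cd44* (0.45, adjusted p = 0.255) and *L1cam* (1.43, adjusted p = 0.175) did not pass either. Without replicate 1 of the pericytes *L1cam* was at 0.71 (adjusted p = 0.604). The blood endothelial sums of these pericytes lay above those of all small intestinal FB libraries, at most 87.2 CPM. The list for interstitial cells of Cajal summed to 1156, 584 and 741 CPM in these pericytes, led by *Ano1*, against at most 504.4 CPM in small intestinal FB. The part of both lists in the differences was not tested.

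In the colon, pericytes carried more *Cdh2* and less *Vcam1*, *Icam1*, *Ncam1* and *Cdh11* than the mean of the 4 FB populations. The libraries of the 2 sides did not overlap for any of these 5 genes. Of the 7 genes tested, 5 were called, against 16.6% of all 16458 genes. *Cdh11* differed most (log2 fold change -7.87, SE 0.40, adjusted p = 5.44e-10), followed by *Cdh2* (log2 fold change 6.07, SE 0.36, adjusted p = 2.40e-09) and *Ncam1* (log2 fold change -5.09, SE 0.35, adjusted p = 1.35e-08). *Vcam1* (log2 fold change -3.61, SE 0.54, adjusted p = 0.000108) and *Icam1* (log2 fold change -2.66, SE 0.63, adjusted p = 0.00575) were lower in 3 of 3 pericyte libraries. The *Vcam1* value was -4.77 without replicate 3 of the pericytes and the *Icam1* value -3.72 without replicate 1. *Cd44* was not called (log2 fold change -0.81, adjusted p = 0.126). *L1cam* did not pass (log2 fold change 1.55, adjusted p = 0.0646), although it was called without replicate 3 of colonic pericytes, without replicate 2 of CD81+ FB or without replicate 3 of colonic Fgfr2+ FB, and by DESeq2, which gives 6 genes in each case. The SMC list, led by *Myh11*, summed to 9912, 11180 and 10880 CPM in these pericytes and to at most 2111 CPM in a colonic FB library. The list for interstitial cells of Cajal, led by *Ano1*, summed to 807, 900 and 686 CPM, against at most 290.7 CPM in colonic FB. The part of both lists in these differences was not tested.

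The pericytes of both tissues also differed from all other populations in which *Cdh2* transcript was assigned. The annotation gives Cdh2-201 and Cdh2-202 as beginning in different first exons. In the 6 pericyte libraries Cdh2-202 held between 43.1% and 74.5% of the estimated *Cdh2* counts (median 60.2%), and Cdh2-201 between 25.1% and 54.6% (median 34.1%). In each of the other 24 libraries Cdh2-202 was at 0, and Cdh2-201 held between 94.3% and 100% of the estimate. The 8 other populations held few *Cdh2* counts, from 42 in colonic PDGFRα hi FB to 272 in CD34+ FB over 3 libraries. The limit of 3 counts corresponds to a share of Cdh2-202 of 7.14% in the first and 1.1% in the last, if every count could tell the transcripts apart, which was not tested. The shares are kallisto's division of 50-base single reads among overlapping transcripts and were not tested.

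**Figure D2:**
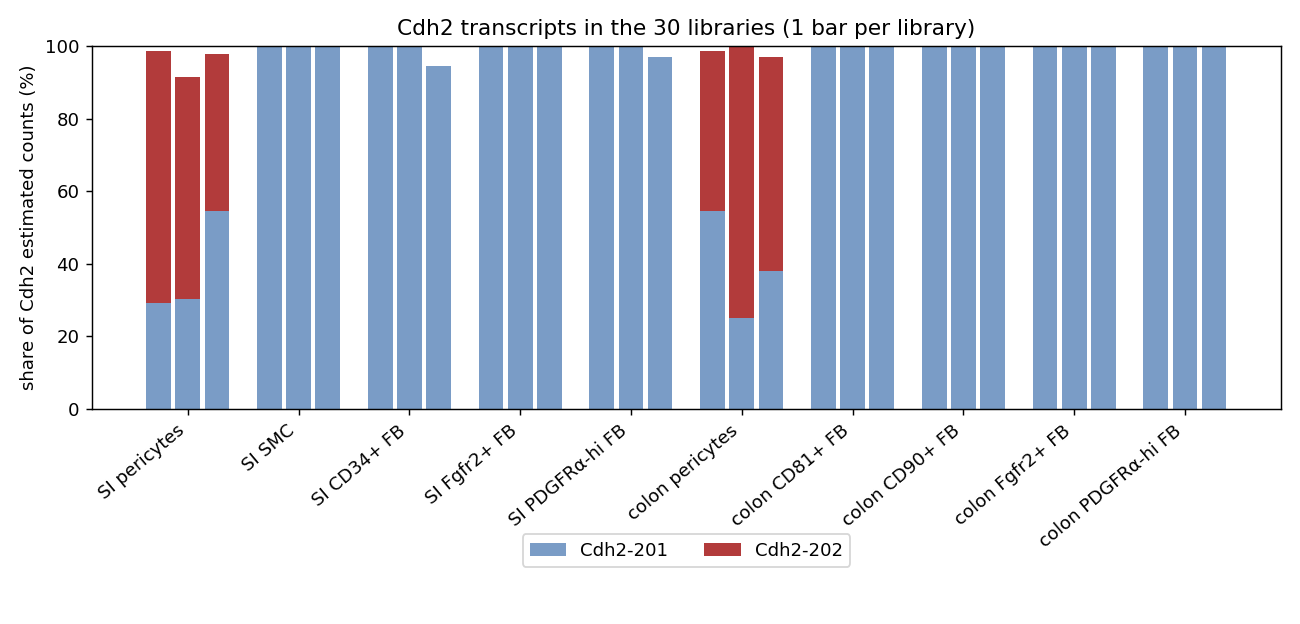
Share of the estimated *Cdh2* counts (percent, vertical axis from 0) assigned to Cdh2-201 and Cdh2-202, with a bar for each of the 30 libraries grouped by population on the horizontal axis, the remainder being Cdh2-203. Cdh2-202 takes between 43.1% and 74.5% in the 6 pericyte libraries and 0 in the other 24.

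Within the small intestine, SMC and pericytes were separated in the sort by PDPN. SMC carried *Ncam1* where pericytes had little of it, and pericytes carried *Thy1* and *Cdh2* where SMC had little of either. In total 3 of the 8 genes tested were called, against 2.85% of all 13769 genes. *Ncam1* was higher in 3 of 3 SMC libraries (log2 fold change 6.59, SE 0.74, adjusted p = 0.00167) and *Cdh2* lower in 3 of 3 (log2 fold change -6.78, SE 0.73, adjusted p = 0.00136). Without replicate 3 of SMC the values were 5.75 and -7.50. For *Thy1*, SMC held 6 counts in their 3 libraries and pericytes 4892, a ratio of 1139 in favour of pericytes with an exact 95% counting interval of 523 to 3105, each side being its summed counts over its summed TMM-scaled library sizes. Replicate 2 of the pericytes held most of these counts, and without it the ratio was 573 (263 to 1563). The fit gave -9.91 on the log2 scale (SE 1.04, adjusted p = 0.00118), and without any 1 of the 3 pericyte libraries *Thy1* fell below the count filter and was not tested, which leaves 2 or 3 genes called. *Icam1* did not overlap between the populations but was not called (log2 fold change -3.65, adjusted p = 0.142), whereas DESeq2 and the model of all 30 libraries called it, giving 4 genes. *Cdh11* was not called (log2 fold change 1.59, adjusted p = 0.534) except when replicate 1 of the pericytes was left out (3.80, adjusted p = 0.0165). The *Vcam1* value was -1.19 with that library and 0.74 without it, and was not called in either case. Beside these, the fibroblast list summed to more in SMC than in pericytes in every library. The list for interstitial cells of Cajal summed to less (16.2, 8.76 and 31.2 against 1156, 584 and 741 CPM). The genes chosen for the sorted subsets summed to 490.9, 390.6 and 273.4 CPM in SMC, where *Fgfr2* led, against 26.1, 18.7 and 39.7 CPM in pericytes. The part of these lists was not tested.

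The subsets of FB were compared next. The first pair, Fgfr2+ FB against PDGFRα hi FB, joined both tissues, with 6 libraries of each subset. This fit had a term for the subset and none for the tissue, so that differences between the tissues count as spread. A subset difference that depends on the tissue can be missed in it. Fgfr2+ FB carried more *Vcam1*, in 6 of 6 libraries, and the other 6 genes tested did not pass. Accordingly 1 of the 7 genes tested was called, against 2.69% of all 15677 genes, with *Vcam1* the gene that passed (log2 fold change 3.22, SE 0.40, adjusted p = 0.000206). *Icam1* passed the adjusted p but not the fold threshold (log2 fold change 1.18, adjusted p = 0.0288). *Ncam1* was higher in Fgfr2+ FB without overlap but was not called (log2 fold change 1.70, adjusted p = 0.104), while DESeq2 and the model of all 30 libraries called it. *Cdh11* (-0.78, adjusted p = 0.128) and *Cd44* (-1.26, adjusted p = 0.220) were not called. The mean of *Cd44* was 192 CPM in colonic Fgfr2+ FB against 983 CPM in colonic PDGFRα hi FB. In the small intestine it was 281 against 174 CPM, in the other direction and with overlap. The SMC list summed to between 1135 and 3393 CPM in PDGFRα hi FB and to at most 845.6 CPM in Fgfr2+ FB. The list for interstitial cells of Cajal, led by *Etv1*, summed to between 229.8 and 504.4 CPM in PDGFRα hi FB and to at most 128.6 CPM in Fgfr2+ FB, and the part of both lists was not tested.

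Each of these subsets was then compared between the tissues, to ask whether a subset carries the same adhesion genes in both. PDGFRα hi FB of the small intestine had less *Ncam1* and less *Cd44* than those of the colon, and in neither case did the libraries overlap. Of the 8 genes tested, 2 were called, against 1.76% of all 15677 genes. *Ncam1* was lower in 3 of 3 small intestinal libraries (log2 fold change -2.97, SE 0.20, adjusted p = 1.03e-06), as was *Cd44* (log2 fold change -2.53, SE 0.28, adjusted p = 7.73e-05). *Vcam1* was also lower without overlap but stayed under the fold threshold (log2 fold change -1.32, adjusted p = 0.0272). *Thy1* had no count in 1 of 3 colonic libraries and was not called (log2 fold change -4.50, adjusted p = 0.103). It was called without that library, replicate 2 of colonic PDGFRα hi FB, as well as by DESeq2 and in the model of all 30 libraries, which gives 3 genes. In these FB the pericyte list summed to 1592, 2069 and 1011 CPM in the small intestine, led by *Kcnj8*, and to 453, 368 and 454 CPM in the colon, led by *Pdgfrb*. The list for interstitial cells of Cajal, led by *Etv1*, summed to 476, 427 and 504 CPM in the small intestine, against 229.8, 291 and 238 CPM. The lymphoid stroma list, led by *Cxcl13*, summed to 6.83, 5.64 and 4.71 CPM, against 13.5, 22.1 and 24.7 CPM in the colon. None of these 3 overlapped between the tissues, and their part in the differences was not tested. The gates of PDGFRα hi FB differed between the tissues, so that tissue and gate cannot be told apart.

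In Fgfr2+ FB, none of the 7 adhesion genes tested outside the sorting markers passed both thresholds between small intestine and colon. *Thy1*, on whose product only the colonic population had been gated, was at 0.14, 0.0902 and 0.346 CPM in the small intestine and at 28.4, 23.7 and 27.7 CPM in the colon, without overlap. The count was 0 of 7 with edgeR, against 3.09% of all 15677 genes. At an unadjusted p below 0.05 there were 3 of the 7, against 2729 of all genes, and DESeq2 called 0, against 6.915% of all genes. *Vcam1* was higher in the small intestine without overlap but under the fold threshold (log2 fold change 1.13, adjusted p = 0.0430). *Cdh11* was likewise higher without overlap and was not called (log2 fold change 0.82, adjusted p = 0.0516). *Ncam1* (-0.15, adjusted p = 0.738) and *Cd44* (0.60, adjusted p = 0.262) overlapped between the tissues. The lymphoid stroma list summed to 108, 52.3 and 126 CPM in small intestinal and to 9.09, 31.4 and 23 CPM in colonic Fgfr2+ FB. The pericyte list, led by *Rgs5*, summed to 2443, 2150 and 2159 CPM in the small intestine and to at most 935.9 CPM in a colonic library, and the SMC list, led by *Acta2*, to 681, 846 and 475 CPM, against 210.3, 217 and 431 CPM in the colon. The fibroblast list, led by *Col1a1*, summed to 11790, 10280 and 10020 CPM in the small intestine and to 16920, 16200 and 25760 CPM in the colon. The part of these lists in the *Vcam1* difference was not tested.

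Whether the tissue difference itself differed between the subsets was tested as an interaction. It did so for *Vcam1*, *Ncam1* and *Cd44*, each with a more positive difference of small intestine minus colon in Fgfr2+ FB than in PDGFRα hi FB. These were 3 of the 7 genes tested, against 1.28% of all 15677 genes. For *Cd44* the difference of log2 fold changes was 3.13 (SE 0.39, adjusted p = 0.000501) and for *Ncam1* 2.82 (SE 0.27, adjusted p = 0.000171). For *Vcam1*, which was higher in the small intestine in Fgfr2+ FB and lower there in PDGFRα hi FB, it was 2.45 (SE 0.42, adjusted p = 0.00548). In the model of all 30 libraries the *Vcam1* value was 2.38 with an adjusted p of 0.503, while the other alternatives gave adjusted p-values down to 5.05e-06. Without the shallow replicate 3 of small intestinal Fgfr2+ FB the values were 2.96 for *Cd44*, 2.83 for *Ncam1* and 2.66 for *Vcam1*, and all 3 genes were called.

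**Figure D3:**
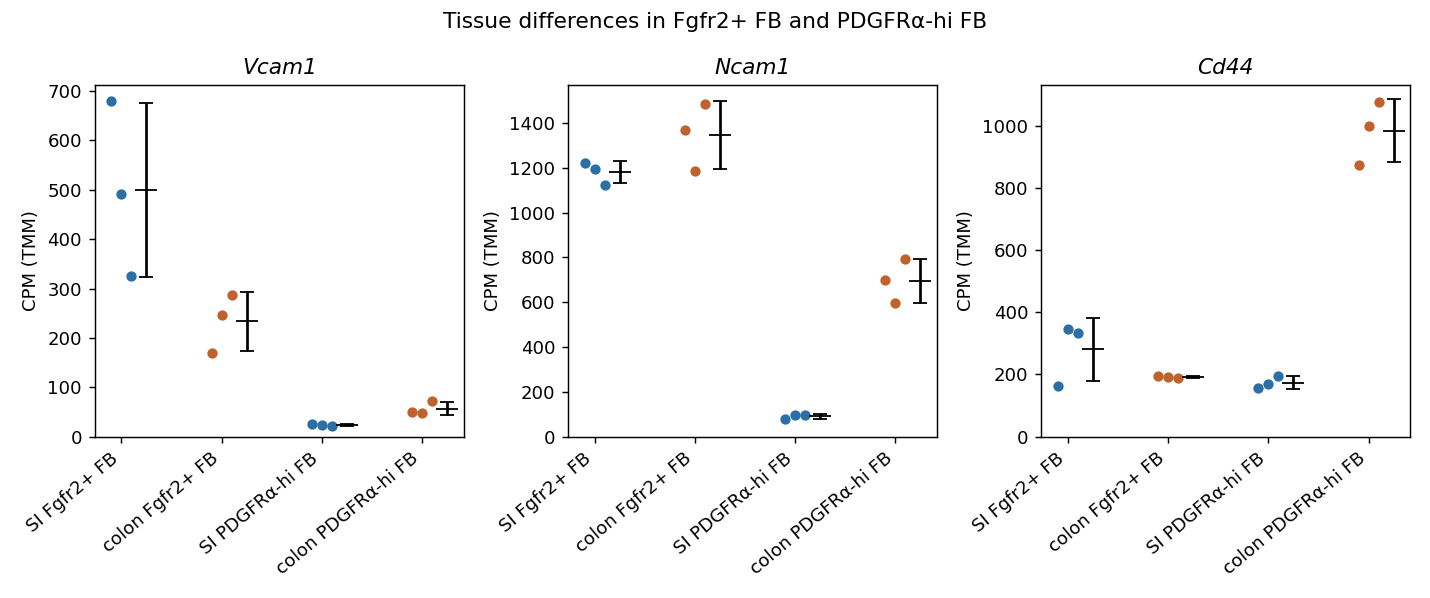
*Vcam1*, *Ncam1* and *Cd44* (CPM, vertical axis) in Fgfr2+ FB and PDGFRα hi FB of each tissue (horizontal axis), with a point for each library and mean ± SD of 3 libraries. *Cd44* in colonic PDGFRα hi FB lies between 874.5 and 1076 CPM, and *Ncam1* in small intestinal PDGFRα hi FB between 77.7 and 98.2 CPM, each apart from the other 3 populations.

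Pericytes had the same gate in both tissues. No gene passed the test between the tissues. *Cdh2*, *Cdh11* and *Icam1* were higher in all 3 libraries of small intestinal pericytes than in colonic pericytes, which with 3 libraries a side can occur by chance. With edgeR 0 of the 8 genes tested were called, and 0.00% of all 13369 genes were. At an unadjusted p below 0.05 there were 4 of the 8 genes and 1094 of all genes, and DESeq2 called 1 of the 8 (*Cdh11*) and 347 genes in all. The values were 5.75 (SE 1.32, adjusted p = 0.284) for *Cdh11*, 2.98 (SE 1.07, adjusted p = 0.506) for *Icam1* and 1.25 (SE 0.41, adjusted p = 0.443) for *Cdh2*. In the model of all 30 libraries *Vcam1* (3.17, adjusted p = 0.0143), *Icam1* and *Cdh11* were called, 3 of the 9 genes that this model tested, which included *Pdpn* (-0.81, adjusted p = 0.545). Without replicate 1 of small intestinal pericytes, a setting chosen after the data were seen, this model called *Icam1* and *Cdh11* (3.48), and *Vcam1* was at 1.2 (adjusted p = 0.280). In the fit of the 2 populations alone *Cdh11* was then at 3.52 (adjusted p = 0.560), and *Vcam1* was at 1.25 (adjusted p = 0.871), against 3.2 (adjusted p = 0.588) with that library. *Pdpn* and *Madcam1* had too few counts in the fit of the 2 populations. The leukocyte genes in replicate 1 and the lower sum of the SMC list go with the small intestinal libraries. The blood endothelial genes were at 278, 150.4 and 158 CPM there and at 40.5, 46.5 and 72.9 CPM in colonic pericytes, without overlap, with *Tek* at 193, 64.1 and 73.4 against 0, 0.755 and 0.0718 CPM and *Pecam1* at 75.4, 79.7 and 61 against 39.4, 44.6 and 64.4 CPM. The fibroblast list, led by *Col1a1*, summed to 1770, 1677 and 1408 CPM in small intestinal and to 924, 976 and 1009 CPM in colonic pericytes, also without overlap. The genes chosen for the sorted subsets summed to 26.1, 18.7 and 39.7 CPM, against 256, 239 and 205 CPM in the colon, where *Cd81* led. The part of these lists in the differences was not tested.

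Among the FB that share most of their gate, small intestinal CD34+ FB and Fgfr2+ FB differed in sorting by CD34. CD34+ FB had less *Vcam1*, in 3 of 3 libraries (log2 fold change -1.90, SE 0.27, adjusted p = 0.0145). With it 1 of the 9 genes tested was called, against 2.64% of all 14978 genes. The call depended on single libraries. It was lost without replicate 1 (-1.93, adjusted p = 0.101), replicate 2 (-1.79, adjusted p = 0.104) or replicate 3 (-1.93, adjusted p = 0.0876) of CD34+ FB and in the model of all 30 libraries (-1.84, adjusted p = 0.315), and over all alternatives the adjusted p ran from 9.27e-08 to 0.315. Without replicate 1 of Fgfr2+ FB *Cd44* was called as well, which makes 2. DESeq2 called *Thy1* and *Vcam1*, and the model of all 30 libraries called *Thy1* and not *Vcam1*. The pericyte list summed to 4130, 4388 and 3737 CPM in CD34+ FB, more than in Fgfr2+ FB, and the SMC list to 129, 107 and 134 CPM, less than there. The list for interstitial cells of Cajal summed to 29.2, 25.6 and 26 CPM in CD34+ FB, against 87.5, 129 and 127 CPM, and the fibroblast list to 58820, 32500 and 41240 CPM, more than in Fgfr2+ FB. The part of these lists was not tested. *Cdh11* was lower in CD34+ FB under the fold threshold (log2 fold change -0.87, adjusted p = 0.0418), and *Thy1* (log2 fold change 4.24, adjusted p = 0.0690) and *Cd44* (log2 fold change -1.36, adjusted p = 0.0676) did not overlap between the populations but were not called. The same held for *Ncam1* (log2 fold change -0.39, adjusted p = 0.257) and *Cdh2* (log2 fold change 1.21, adjusted p = 0.411).

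Colonic CD90+ FB and Fgfr2+ FB differed in sorting by CD90 alone. *Thy1*, which encodes it, did not overlap between them, and none of the other adhesion genes passed the test. With edgeR 0 of 8 genes were called, against 0.0133% of all 15061 genes. At an unadjusted p below 0.05 there were 0 of the 8, against 1052 of all genes, and DESeq2 called 0, against 0.644% of all genes. *L1cam* had the largest fitted difference (log2 fold change -1.13, adjusted p = 0.790), and *Ncam1* was lower in CD90+ FB without overlap (log2 fold change -0.38, adjusted p = 0.723). A p above the threshold with 3 libraries a side does not show that the levels are the same. The pericyte list summed to 333, 384 and 396 CPM in CD90+ FB, less than in any Fgfr2+ FB library, and the SMC list to 108, 138 and 140.3 CPM, against 210.3, 217 and 431 CPM. Colonic CD81+ FB and Fgfr2+ FB differed in sorting by the level of PDPN. *Ncam1*, *Vcam1* and *Cdh11* were lower and *Thy1* higher in CD81+ FB without overlap, and 0 of 8 genes were called with edgeR, against 0.470% of all 14476 genes. There were 4 genes at an unadjusted p below 0.05, against 1369 of all genes, and DESeq2 called 1 (*Thy1*), against 3.185% of all genes. *Ncam1* lay at the edge of the fold threshold (log2 fold change -1.50, adjusted p = 0.0486) and was called when replicate 1 of CD81+ FB was left out. That library is the one with high *Cd44* and low *Vcam1*. The blood endothelial genes, led by *Tek*, summed to 380.1, 372 and 315 CPM in CD81+ FB and to 59.4, 67.9 and 82.4 CPM in Fgfr2+ FB. The pericyte list summed to 341, 252 and 200.4 CPM in CD81+ FB, less than in any Fgfr2+ FB library, and the SMC list to 122, 34.9 and 35.2 CPM, also less. The fibroblast list summed to 52960, 39970 and 40860 CPM, more than in Fgfr2+ FB, and the part of these lists was not tested.

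Other adhesion genes were examined as lists of 20 members of the immunoglobulin superfamily, 10 cadherins, 7 linkers to the cytoskeleton and 3 hyaluronan synthases. In rescaled TPM averaged over the 30 libraries, the most abundant were *Mcam* (117 TPM), *Jam2* (66.3 TPM) and *Bcam* (55.8 TPM) of the first list and *Cdh13* (33.1 TPM), *Cdh4* (14.5 TPM) and *Cdh6* (6.80 TPM) of the cadherins. Among the linkers, *Msn* was at 335.5, *Ctnnd1* at 148 and *Jup* at 137 TPM, and among the synthases *Has2* was at 24.9, *Has1* at 9.55 and *Has3* at 8.19 TPM. Among the 10 populations, 18 of the 39 genes tested differed, namely 9 of 20 of the immunoglobulin superfamily, 4 of 9 cadherins, 4 of 7 linkers and 1 of 3 synthases, against 26.4% of all genes. DESeq2 called 26 of the 39, against 37.35% of all genes. *Esam* encodes the gated ESAM-1. *Mcam* encodes CD146, which the study used in place of ESAM-1 in later flow cytometry, so that counts are also given without these genes. How closely their RNA follows the gates was not tested. Without *Esam* there were 17 of 38, 8 of them among 19 of the immunoglobulin superfamily, and without both genes 16 of 37.

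In pericytes against FB of the small intestine, 10 of 38 of these genes were called, 7 higher and 3 lower, against 15.2% of all genes, with a median log2 fold change over the lists of -0.12 against 0.02 over all genes tested. Without *Esam*, which was at 22.3, 202 and 104 CPM in pericytes, there were 9 of 37, and without *Esam* and *Mcam* 8 of 36, 5 higher and 3 lower, with a median of -0.14. *Mcam*, which is also in the pericyte list, was higher (log2 fold change 6.25, SE 0.59, adjusted p = 1.43e-06), as was *Bcam*, which encodes a laminin receptor (log2 fold change 4.65, SE 0.74, adjusted p = 0.000348). *Has2*, which encodes a hyaluronan synthase, was lower (log2 fold change -5.04, SE 0.61, adjusted p = 1.89e-05). In the colon 13 of 39 were called, 8 higher and 5 lower, against 16.6% of all genes, with a median of -0.14 against 0.05 over all genes. Without *Esam* there were 12 of 38, and without *Esam* and *Mcam* 11 of 37, 6 higher and 5 lower, with a median of -0.22. *Mcam* (log2 fold change 7.79, SE 0.52, adjusted p = 9.69e-09), *Bcam* (log2 fold change 6.16, SE 0.58, adjusted p = 5.44e-07) and the cadherin *Cdh6* (log2 fold change 5.27, SE 0.83, adjusted p = 0.000164) were higher. *Has2*, named here after its values were seen, was lower (log2 fold change -5.18, SE 0.53, adjusted p = 1.48e-06).

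In SMC against pericytes 1 of 34 was called, a share near the 2.85% of all genes. DESeq2 called 5, against 9.086% of all genes. With edgeR it was the cadherin *Cdh6*, at 99.5, 59.1 and 82.5 CPM in SMC and 0, 0.505 and 1.11 CPM in pericytes (log2 fold change 7.16, SE 1.23, adjusted p = 0.0122). In Fgfr2+ against PDGFRα hi FB 1 of 38 was called, again near the share of all genes, 2.69%. DESeq2 called 3, against 4.446% of all genes. With edgeR it was *Alcam*, which encodes a ligand of the T cell molecule CD6, at 182, 202 and 230 CPM in small intestinal and 39.1, 66.6 and 25.5 CPM in colonic PDGFRα hi FB, and in Fgfr2+ FB at most at 14.9 CPM in a library (log2 fold change -4.95, SE 0.91, adjusted p = 0.00543). Between the tissues, 4 of 38 were called in PDGFRα hi FB, against 1.76% of all genes, all lower in the small intestine. These were *Chl1*, a close homologue of *L1cam* (0.0571 ± 0.0574 against 18.3 ± 5.7 CPM), *Ezr*, which encodes ezrin (0.0188 ± 0.0326 against 4.66 ± 2.71 CPM), *Cadm3* (1.12 ± 1.01 against 32 ± 12.4 CPM) and *Cdh13* (26.2 ± 9.76 against 102 ± 32.2 CPM), the last of which was named after its values were seen. In Fgfr2+ FB 2 of 38 were called, against 3.09% of all genes, *Ezr* (0.174 ± 0.243 against 13.1 ± 3.28 CPM) and *Cdh13* (1.94 ± 0.838 against 24.3 ± 5.95 CPM), both lower in the small intestine. DESeq2 called 5, against 6.915% of all genes.

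For the interaction of tissue and subset 0 of 38 list genes were called with edgeR, against 1.28% of all genes. At an unadjusted p below 0.05 there were 6, against 1768 of all 15677 genes, and DESeq2 called 3, against 3.578% of all genes. For pericytes between the tissues edgeR called 0 of 33, against 0.00% of all genes. Those at an unadjusted p below 0.05 were 3, against 1094 of all 13369 genes, and DESeq2 called 1, against 2.596% of all genes. In CD34+ against Fgfr2+ FB of the small intestine 3 of 36 were called, against 2.64% of all genes. *Ezr* was higher in CD34+ FB (13.3 ± 2.75 against 0.174 ± 0.243 CPM), and *Has2* (log2 fold change -3.23, SE 0.37, adjusted p = 0.00662) and the junctional molecule *F11r* (log2 fold change -2.19, SE 0.35, adjusted p = 0.0209) were lower. In the colon 0 of 35 were called with edgeR between CD90+ and Fgfr2+ FB, against 0.0133% of all genes. At an unadjusted p below 0.05 there were 2, against 1052 of all 15061 genes, and DESeq2 called 0, against 0.644% of all genes. In CD81+ against Fgfr2+ FB edgeR called 1 of 32, against 0.470% of all genes. It was *F11r*, lower in 3 of 3 libraries (log2 fold change -4.97, SE 0.84, adjusted p = 0.0368). DESeq2 called 5 in this comparison, against 3.185% of all genes.

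The likeness of expression patterns was described by the Pearson correlation of log2 CPM over the 30 libraries, among 11720 genes with a mean of at least 5 CPM. These libraries are not independent points, since 3 share each population. The genes most like *Pdpn* were *Clmp* (0.98), *Efemp1* (0.96) and *Pmepa1* (0.95), and the gene most like *Cdh2* was *Trarg1* (0.96). For *Ncam1* they were *Wnt2b* (0.93), *Fgfr2* (0.92) and *Fam198b* (0.90), and for *Cdh11* *Col6a2* (0.92), *Mmp2* (0.91) and *Scube1* (0.91). *Thy1* was most like *Atf3* (0.88), *Kcnt2* (0.86) and *Fos* (0.86), and *Icam1* most like *Efcc1* (0.88), *Lamp1* (0.86) and *Mrc2* (0.84). *Vcam1* was most like *Trim14* (0.83), *Serpina3g* (0.81) and *Lepr* (0.80). The highest values were lower for *Cd44* (*Ahr*, 0.76) and *L1cam* (*Atg13*, 0.75), and for *Madcam1*, at so few counts, the highest was 0.49. Between the adhesion genes themselves, *Pdpn* and *Cdh2* were opposed (-0.92), as were *Cdh2* and *Cdh11* (-0.80) and *Cdh2* and *Ncam1* (-0.79), whereas *Pdpn* went with *Cdh11* (0.86) and *Ncam1* (0.74). Pericytes were gated as PDPN- and SMC as PDPN+, as were all colonic FB at some level, so that the part of the gates in the correlations of *Pdpn* cannot be told apart. *Vcam1* and *Icam1* had a correlation of 0.51.

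Several of the genes are read from more than one transcript. For *Vcam1*, Vcam1-201 was the main transcript in most libraries. The retained-intron transcript Vcam1-204 held 84.6%, 59.6% and 19.6% of the *Vcam1* estimate in colonic pericytes, where the gene was lowest. These shares rest on 38.5, 25.7 and 62.9 estimated counts, of 45, 43 and 322 for the gene. In small intestinal Fgfr2+ FB, Vcam1-204 held 2.21%, 3.73% and 10.3%, from 215, 204 and 97.2 estimated counts, which is more in each library than in the colonic pericytes. For *Ncam1*, Ncam1-202, Ncam1-204 and Ncam1-205 held most of the counts, and Ncam1-202 held 54.5%, 48.6% and 86.5% in SMC, the last in the library with the highest *Ncam1* in CPM. For *Cd44* in colonic PDGFRα hi FB, Cd44-207 held 55.0%, 38.1% and 35.5% and Cd44-203 28.1%, 35.2% and 37.8%. The strand setting of the counting is not given in the sources used here. Genes on the opposite strand overlap *Vcam1* over 1238 bases, *Icam1* over 511 bases, *Ncam1* over 54304 bases, *Cdh2* over 946 bases, *Cd44* over 107 bases and *L1cam* over 3401 bases. On the same strand, 4 annotated genes overlap *Cdh11*, the longest over 3998 bases, and *Arhgap4* overlaps *L1cam* over 4664 bases, so that reads from these stretches cannot be assigned with certainty. Of the 31-base stretches of their transcripts, 14.8% for *Icam1* and at most 4.78% for each of the others also occur in transcripts of other genes.

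The genes lie apart in the genome, with 3 of them on chromosome 9. On GRCm38, as annotated by GENCODE, *Icam1* lies at chr9:21015985-21028817 (+ strand), *Thy1* at chr9:44043384-44048579 (+) and *Ncam1* at chr9:49502136-49798925 (−). *Vcam1* lies at chr3:116109949-116129688 (−), *Pdpn* at chr4:143267431-143299564 (−), *Cdh11* at chr8:102632095-102785642 (−) and *Cd44* at chr2:102811141-102901665 (−). *Madcam1* lies at chr10:79664559-79668537 (+) and *L1cam* at chrX:73853778-73896105 (−).

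Promoters from RefSeq (GRCm38.p6), running from 250 bases before to 50 bases after the start of a gene, were given for 5 of the 10 genes, *Cd44*, *Icam1*, *L1cam*, *Madcam1* and *Pdpn*. They were searched on both strands for the NF-κB consensus of 10 letters, GGGRNNYYCC, and for the TATA box TATAAA. In the consensus R is A or G, Y is C or T and N is any letter. These are held by 8.46% and 13.6% of all 32851 promoters of 300 bases. Sequences that depart from the consensus in any letter were not counted, so that its absence does not show the absence of an NF-κB site. *Icam1* and *Madcam1* are shown because both products bind leukocytes, and the data have the first transcribed in every population and the second near 0. The *Icam1* promoter (chr9:21015690-21015989, + strand) held TATAAA once, on its own strand from position 14 after the RefSeq start. That start, and this match, lie before the GENCODE start of *Icam1* given above. The *Icam1* window held no exact match to the NF-κB consensus. It holds tggaaattcc, which departs from the consensus in the first letter only and is not in capitals. The *Madcam1* promoter (chr10:79664309-79664608, + strand) held 2 matches to the NF-κB consensus on the opposite strand, at positions -83 and -70, and no TATAAA. Neither motif was found in the window of *Cd44*, *Pdpn* or *L1cam*. A match describes letters in the sequence and not a site in use. The matches are in capitals.
Icam1: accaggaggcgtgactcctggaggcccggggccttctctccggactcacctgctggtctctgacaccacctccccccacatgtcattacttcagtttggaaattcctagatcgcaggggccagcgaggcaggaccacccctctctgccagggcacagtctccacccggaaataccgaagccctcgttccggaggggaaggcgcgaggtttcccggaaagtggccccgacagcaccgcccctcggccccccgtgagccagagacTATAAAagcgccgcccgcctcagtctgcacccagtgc
Madcam1: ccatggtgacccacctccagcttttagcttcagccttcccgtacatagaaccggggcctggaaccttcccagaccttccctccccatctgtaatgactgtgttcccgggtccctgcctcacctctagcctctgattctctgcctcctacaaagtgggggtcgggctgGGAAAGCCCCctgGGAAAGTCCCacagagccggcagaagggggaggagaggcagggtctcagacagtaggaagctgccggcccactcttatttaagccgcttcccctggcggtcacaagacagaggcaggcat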

How the data were processed

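RNA of sorted intestinal mesenchymal cells was amplified (Ovation RNA-Seq System V2), made into libraries (Ovation Ultralow system V2) and sequenced as single reads of 50 bases. The submitters' processing notes name Trim Galore 0.4.0, FastQC 0.11.2, kallisto 0.42.5 and the build mm10, and the transcript set is not given in the sources used here. The deposited tables hold estimated counts and TPM per transcript, as the authors' kallisto runs gave them. Of 98492 transcripts, 97204 were matched to GENCODE M21 (GRCm38) and summed to 32386 genes by symbol, with estimated counts rounded to whole numbers. TPM was rescaled over matched genes.

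Genes that reached 6 counts in 3 or more libraries of a fit were tested with edgeR 4.0.16 (quasi-likelihood, TMM, Benjamini-Hochberg) under R 4.3.3, and log2 CPM used a prior count of 2. The tests were checked on simulated data. The alternatives were DESeq2 1.42.0, RLE normalization, no count filter, no fold threshold, the replicate number as a block, all 30 libraries in 1 model, each library left out in turn and, added after the data were seen, all 30 libraries but replicate 1 of small intestinal pericytes. Correlations of replicate counts within a population lay between 0.723 and 0.972, and no pair was alike within counting noise (lowest chi-square per degree of freedom 17.5). The study describes sorting both tissues from the same mice, but which libraries share a mouse is not stated, so p-values measure the spread between these libraries.

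The members, the 4 lists of other adhesion genes and the 15 lists of cell type markers were chosen with earlier results of these data known, and the result of 1 marker list is not reported here. List genes were named by the highest mean TPM and by the largest log2 fold change among those called, up to 3 each, except where the text says otherwise.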

Additional observations from a re-analysis of the deposited data

Results flagged for a closer look

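The difference between small intestine and colon was itself different between Fgfr2+ FB and PDGFRα hi FB for 3 genes, by the interaction term of edgeR's quasi-likelihood test over 12 libraries. The difference of log2 fold changes was 2.45 for *Vcam1*, 2.82 for *Ncam1* and 3.13 for *Cd44*. In the model of all 30 libraries *Ncam1* and *Cd44* were called and *Vcam1* was not. For *Ncam1* and *Cd44* the larger fitted difference was in PDGFRα hi FB (log2 fold change -2.97 and -2.53), with higher levels in the colon. In Fgfr2+ FB the values were -0.15 and 0.60, and neither was called. For *Vcam1* and *Cd44* the fitted tissue differences of the subsets had opposite signs. The gates of these subsets were not the same in both tissues, and tissue and gate cannot be told apart.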

How the results depend on the processing

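All 19 called values of single genes kept their direction and their call with DESeq2, with RLE normalization, without a count filter and under the replicate block, wherever the gene was tested. In the model of all 30 libraries 17 did and 2 lost the call, *Vcam1* in the interaction (2.38) and in CD34+ against Fgfr2+ FB (-1.84), and the latter was also lost without any 1 of the CD34+ FB libraries (-1.93, -1.79 and -1.93). Leaving out each library kept 225 values and lost these 3. The cause was not tested.

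The number of adhesion genes called moved by over 1.5 times in 6 comparisons, and by 1 gene and no more than 1.5 times in 5 others. In Fgfr2+ against PDGFRα hi FB it was 2 with the adjusted p alone, with DESeq2 and with all 30 libraries, against 1. In Fgfr2+ FB between tissues it was 1 with the adjusted p alone, against 0. In pericytes between tissues it was 1 with DESeq2 and 3 with all 30 libraries, against 0, and 2 with all 30 but replicate 1 of small intestinal pericytes, a setting added after the data were seen. In SMC against pericytes the same setting gave 5, against 3. In CD34+ against Fgfr2+ FB it was 2 with the adjusted p alone or DESeq2, against 1, and 1 with all 30 libraries, where it was *Thy1* in place of *Vcam1*, and between 0 and 2 with a library left out. In CD81+ against Fgfr2+ FB it was 1 with the adjusted p alone or DESeq2, against 0, and between 0 and 1 with a library left out.

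Same-numbered libraries of different populations did not deviate together (mean r 0.00763 over 135 pairs, 1 of them above 0.1, against -0.00346 over 270 other pairs), and the libraries were not treated as paired. The block changed no call of an adhesion gene, and in small intestinal pericytes against FB it gave 4 of them, as without it, and 1755 genes in all, against 2467.

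Counts over all genes differed by over 1.5 times as follows. SMC against pericytes gave 393, but 1251 with DESeq2, 1784 with all 30 libraries, 1400 with all 30 but replicate 1 of the pericytes, 639 without a count filter and 183 to 363 with a library left out. Fgfr2+ against PDGFRα hi FB gave 422, but 697 with DESeq2. PDGFRα hi FB between tissues gave 276, but 520 with DESeq2, 168 with all 30 libraries and 183 to 341 with a library left out. Fgfr2+ FB between tissues gave 485, but 1084 with DESeq2, 255 with all 30 libraries and 275 to 499 with a library left out. The interaction gave 201, but 561 with DESeq2, 116 with all 30 libraries and 340 without a filter. Pericytes between tissues gave 0 with edgeR (1094 at an unadjusted p below 0.05), but 347 with DESeq2, 1000 with all 30 libraries, 626 with all 30 but replicate 1 of small intestinal pericytes, 22 without a filter and 0 to 1 with a library left out. CD34+ against Fgfr2+ FB gave 395, but 1058 with DESeq2, 213 with all 30 libraries and 59 to 859 with a library left out. CD90+ against Fgfr2+ FB gave 2, but 97 with DESeq2, 0 with all 30 libraries, 16 without a filter, 5 under the replicate block and 0 to 24 with a library left out. CD81+ against Fgfr2+ FB gave 68, but 461 with DESeq2, 165 with all 30 libraries, 197 without a filter and 5 to 143 with a library left out.

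With 3 libraries a population, differences in *Madcam1* and the low *Thy1* levels are limited by counts.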
